A study of Mus musculus with 4 samples.

Results

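The sarcomere is the repeating contractile unit of heart muscle, and the 39 genes described here encode its Z-discs, M-bands and thin filaments together with the proteins attached to them. They were chosen by symbol as structural sarcomere genes other than the myosins and the troponin I and T isoforms. All 39 were found among the 27267 genes of the deposited transcript tables, in 68 transcript records. Of these, 37 averaged 1 CPM (counts over library size, scaled by TMM) or more and could be compared, while Myot and Ankrd2 could not. RNA sequencing had been done on primary cultures of heart muscle cells from CD1 mice, taken at postnatal day 1. Cells received 50 nM of a mimic of hsa-miR-199a-3p, 50 nM of a mimic of hsa-miR-590-3p, the Caenorhabditis elegans microRNA cel-miR-67 at the same dose as a control mimic, or a mock transfection, and RNA was taken 72 h later. There was 1 library for each of the 4 conditions, all from the same strain. Mimics were delivered with a lipid reagent as the cells were plated, and the labels say of the mock cells only that they were mock transfected.

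In a sarcomere, actin filaments capped by tropomodulin and covered by tropomyosin and troponin are anchored in the Z-disc by alpha-actinin, while titin spans from the Z-disc to the M-band, where myomesins link the thick filaments. Many Z-disc proteins also sense stretch and pass signals to the nucleus, and the M-band and Z-disc hold ubiquitin ligases that turn the structure over. In the newborn mouse heart cardiomyocytes are leaving the cell cycle, and their sarcomeres change from fetal to adult protein forms.

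The microRNA given in the library with the larger differences is shown with its seed, bases 2 to 8, in capitals. The sequence is the mouse mature form in RefSeq (GRCm38.p6), written 5′ to 3′, and lies in Mir199a-1 at chr9:21496498-21496519 (minus strand) and in Mir199a-2 at chr1:162217883-162217904 (plus strand).
mmu-miR-199a-3p: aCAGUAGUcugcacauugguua

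Promoter windows of 4 members are shown because these genes carry contrasts described below. Acta1 and Actc1 are sarcomeric actins that stood on opposite sides of the controls under hsa-miR-199a-3p. Xirp2 and Ttn are a pair of the 4 members at least 2-fold lower in the same library. Each window runs from 250 bases before to 50 after a start site, 5′ to 3′ on the gene's own strand, from RefSeq on GRCm38.p6. They are chr8:123894726-123895025 (minus strand) for Acta1, chr2:114052826-114053125 (minus strand) for Actc1, chr2:67445752-67446051 (plus strand) for Xirp2 and chr2:76982498-76982797 (minus strand) for Ttn. Capitals mark a CArG box, the sequence known to bind serum response factor, in the actin genes, and an A/T-rich MEF2 site, named for the muscle transcription factor, in Xirp2 and Ttn.
Acta1: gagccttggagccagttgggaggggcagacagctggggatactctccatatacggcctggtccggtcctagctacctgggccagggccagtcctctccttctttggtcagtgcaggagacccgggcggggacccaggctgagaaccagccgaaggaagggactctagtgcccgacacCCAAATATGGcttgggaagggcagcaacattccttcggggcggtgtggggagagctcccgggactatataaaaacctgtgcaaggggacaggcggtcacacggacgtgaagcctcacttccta
Actc1: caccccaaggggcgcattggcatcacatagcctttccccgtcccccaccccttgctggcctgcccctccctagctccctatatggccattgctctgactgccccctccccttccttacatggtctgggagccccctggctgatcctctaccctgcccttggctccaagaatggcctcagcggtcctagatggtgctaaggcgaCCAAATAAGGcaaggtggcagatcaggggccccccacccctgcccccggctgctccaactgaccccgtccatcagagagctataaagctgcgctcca
Xirp2: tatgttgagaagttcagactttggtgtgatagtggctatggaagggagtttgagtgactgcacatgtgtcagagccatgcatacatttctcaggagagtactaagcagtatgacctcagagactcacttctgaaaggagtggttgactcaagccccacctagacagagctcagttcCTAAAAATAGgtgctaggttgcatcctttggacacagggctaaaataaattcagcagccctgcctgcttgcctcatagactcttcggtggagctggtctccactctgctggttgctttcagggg
Ttn: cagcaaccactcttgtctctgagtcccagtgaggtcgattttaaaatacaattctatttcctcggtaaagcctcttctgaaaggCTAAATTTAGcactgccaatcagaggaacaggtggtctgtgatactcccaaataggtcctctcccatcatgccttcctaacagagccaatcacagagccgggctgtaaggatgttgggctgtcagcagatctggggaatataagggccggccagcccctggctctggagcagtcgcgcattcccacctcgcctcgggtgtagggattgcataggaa
The CArG box began 73 bases before the start site in Acta1 and 47 bases before it in Actc1. The MEF2 site began 74 bases before the start in Xirp2 and 166 bases before it in Ttn. As search patterns both motifs read the same on either strand, though a single site need not. Neither motif overlapped the other in these windows. Of the 39 members, 33 were in the promoter table. A CArG box was present in 6 of the 33, or 18.2%, and in 1.81% of all genes with a window of this length. The 6 were Actc1, Acta1, Myom1, Ldb3, Nebl and Fhl2. A MEF2 site was present in 6 of the 33 and in 3.70% of all genes, and the members were Ttn, Mybpc3, Myoz2, Synpo2l, Xirp2 and Fhl2. Further patterns were searched and are not marked in the windows. An M-CAT sequence (CATTCC) was in 14 of the 33, or 42.4%, Acta1 and Ttn among them, and in 16.6% of all genes. An E-box (CANNTG) was in 28, or 84.8%, against 75.0% of all genes, and TATAAA in 9, or 27.3%, against 15.7%. Of the other members at least 2-fold lower under hsa-miR-199a-3p, Csrp3 had neither a CArG box nor a MEF2 site in its windows, and Myom2 was not in the promoter table. A match describes the letters only.

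Libraries held 31638930 to 38745528 reads, of which 67.6% to 68.7% were placed uniquely, and each level below rests on the reads of 1 library. A gene counted as changed where its level differed 2-fold or more from cel-miR-67 and, the same way, from mock. With 1 library per condition no test was possible and no difference has a replicate check. The 95% intervals cover counting error only. Log2 ratios are of TMM-scaled CPM, the one to cel-miR-67 standing before the one to mock, while levels are in RPKM, which allows for record length and is not TMM-scaled. The same pair of control libraries serves both microRNAs.

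Sarcomere transcripts as a group were less abundant in both microRNA libraries. The 39 genes held 3.50% of all reads under hsa-miR-199a-3p and 3.76% under hsa-miR-590-3p, against 4.37% with cel-miR-67 and 4.70% with mock. Under hsa-miR-199a-3p 28 of 37 members lay below both controls and 3 above both, where 41.9% of all 13502 genes lay below and 40.2% above. Under hsa-miR-590-3p 26 of 37 lay below both and 4 above both, where 36.6% of all genes lay below and 35.6% above. Member medians were -0.32 and -0.36 under hsa-miR-199a-3p, and -0.25 and -0.33 under hsa-miR-590-3p, while the medians of all genes were no further from 0 than -0.01. Past 2-fold against both controls were 4 members under hsa-miR-199a-3p, all lower, where 2.34% of all genes were lower, 2.4% higher and 4.74% either. These were Csrp3, Xirp2, Myom2 and Ttn. None of the 37 passed under hsa-miR-590-3p, where 0.23% of all genes were lower, 0.356% higher and 0.585% either. Against mock alone, Xirp2 was past 2-fold under hsa-miR-590-3p, and Mybpc3, Tcap, Nebl and Pdlim5 joined the 4 under hsa-miR-199a-3p to make 8. Of all genes, 1.84% were past 2-fold against mock under hsa-miR-590-3p and 7.69% under hsa-miR-199a-3p.

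Of the cell type markers, those of cardiomyocytes were lower in sum in both microRNA libraries. Those of fibroblasts were higher in a sum made up mostly of collagen transcripts. The 12 cardiomyocyte markers outside the list, such as the myosin heavy chain gene Myh6 and the calcium channel gene Ryr2, were all measured. They summed to 34868 CPM under hsa-miR-199a-3p and 34200 under hsa-miR-590-3p, against 45681 with cel-miR-67 and 50756 with mock, with 9 of 12 below both controls under hsa-miR-199a-3p and 10 under hsa-miR-590-3p. Myh6, Myh7 and Tnnt2 supplied most of each sum, and 0.16% of Myh6 reads and 0.0018% of Tnnt2 reads were placed uniquely. Above both controls under hsa-miR-199a-3p were Myl3, at log2 ratios of 0.38 and 0.02, and Myl7, at 0.80 and 0.54. Under hsa-miR-590-3p Myl7 alone lay above both, at 0.26 and 0.01. The 8 fibroblast markers summed to 11695 CPM under hsa-miR-199a-3p and 11252 under hsa-miR-590-3p, against 9945 with cel-miR-67 and 10433 with mock. Below both controls were 5 of 8 under hsa-miR-199a-3p and 2 under hsa-miR-590-3p. The collagen genes Col1a1, Col1a2 and Col3a1 supplied most of each sum and lay above both controls under hsa-miR-199a-3p. The 5 below both there were Dcn, Lum, Pdgfra, Tcf21 and Postn, and the list medians were -0.63 and -0.35. The 8 smooth muscle and pericyte markers summed to 6577 CPM under hsa-miR-199a-3p and 5251 under hsa-miR-590-3p, against 5493 with cel-miR-67 and 4591 with mock, with 3 of 8 below both under hsa-miR-199a-3p and 2 under hsa-miR-590-3p. Endothelial (6 genes), epicardial (4), macrophage (6) and erythroid (4) markers summed to at most 242, 272, 18.7 and 0.348 CPM in any library, and the globin genes Hbb-bs and Hbb-bt had no reads. Fewer cardiomyocytes and less of these transcripts per cardiomyocyte cannot be told apart in such samples. Their part in the results was not tested.

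**Figure D1:**
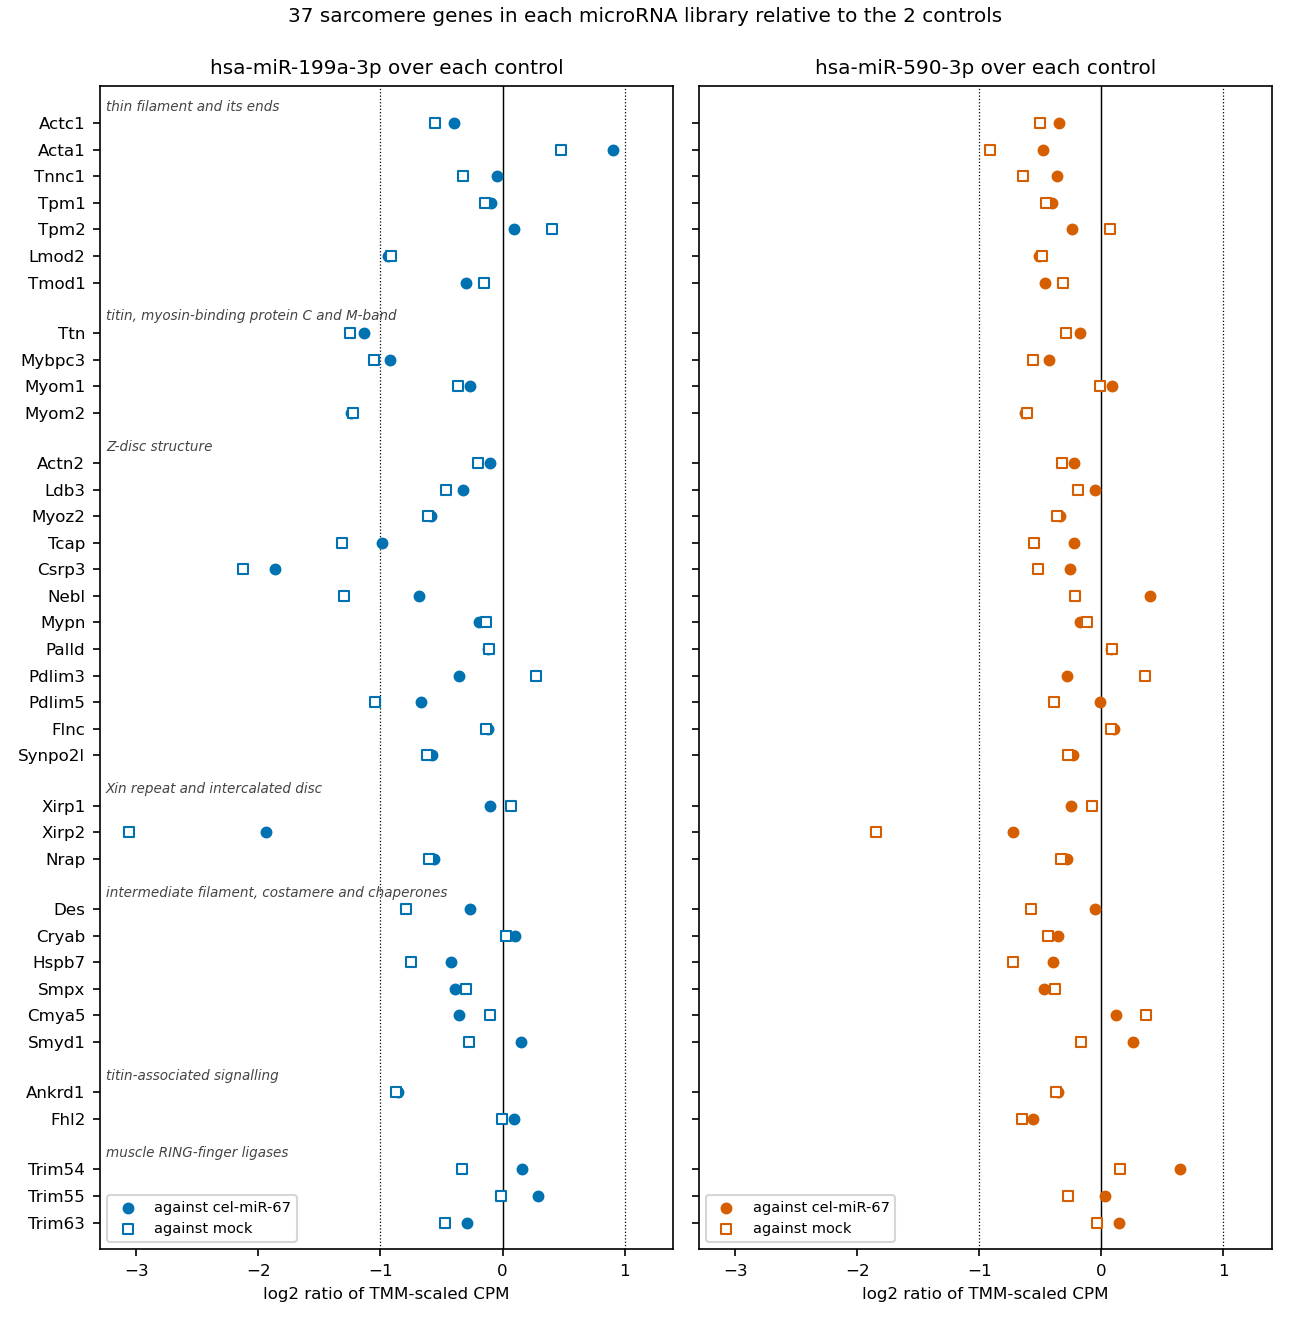
Log2 ratio of TMM-scaled CPM of the 37 measured members (vertical axis, by role) in the hsa-miR-199a-3p library (left) and the hsa-miR-590-3p library (right) over cel-miR-67 (filled circles) and over mock (open squares), with dotted lines at 2-fold. Most points lie left of 0 in both panels, and Csrp3, Xirp2, Myom2 and Ttn lie left of the dotted line for both controls under hsa-miR-199a-3p.

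The thin-filament genes include the 3 most abundant members, and their median lay closer to the controls under hsa-miR-199a-3p than under hsa-miR-590-3p. Actc1, the cardiac alpha-actin that forms the filament, stood first of the 39 in every library, with 5243 RPKM under hsa-miR-199a-3p and 5353 under hsa-miR-590-3p, against 6482 with cel-miR-67 and 7110 with mock. Both microRNA libraries lay below both controls, with log2 ratios of -0.40 and -0.55 under hsa-miR-199a-3p and of -0.35 and -0.50 under hsa-miR-590-3p. Tpm1, the main cardiac tropomyosin, had 4040 RPKM under hsa-miR-199a-3p and 3219 under hsa-miR-590-3p, against 4055 with cel-miR-67 and 4147 with mock, and 0.40% of its reads were placed uniquely. Tnnc1, troponin C, the calcium sensor of the filament, had 2591 RPKM under hsa-miR-199a-3p and 2047 under hsa-miR-590-3p, against 2510 with cel-miR-67 and 2995 with mock. By total reads both genes were lowest in the hsa-miR-590-3p library, by less than 2-fold, with log2 ratios of -0.40 and -0.46 for Tpm1 and of -0.37 and -0.64 for Tnnc1. In the hsa-miR-199a-3p library the ratios were -0.09 and -0.14 for Tpm1 and -0.04 and -0.32 for Tnnc1, and the first value of Tnnc1 is positive when libraries are scaled by total counts. The uniquely placed Tpm1 reads, all in variant 2, went the other way. They stood at 1.42 and 1.58 times the controls under hsa-miR-199a-3p and 1.05 and 1.17 times under hsa-miR-590-3p. These reads describe that record, 1 of 10, and not the gene as a whole. The direction for the gene rests on shared reads, and whether any were shared with other genes was not tested.

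Acta1, the skeletal alpha-actin, which the rodent heart makes before birth and again under load, differed from its cardiac paralogue. It had 82.0 RPKM under hsa-miR-199a-3p, 30.9 under hsa-miR-590-3p, 41.0 under cel-miR-67 and 54.4 in mock. The hsa-miR-199a-3p library was the highest and the hsa-miR-590-3p library the lowest, with both controls between them. Its log2 ratios were 0.91 and 0.48 under hsa-miR-199a-3p, and -0.48 and -0.91 under hsa-miR-590-3p, none past 2-fold. As a share of the summed RPKM of both actins, which does not depend on library scaling, Acta1 made up 1.54% (95% interval 1.49 to 1.58) under hsa-miR-199a-3p and 0.573% (0.545 to 0.603) under hsa-miR-590-3p. The controls had 0.628% (0.601 to 0.656) under cel-miR-67 and 0.759% (0.730 to 0.790) in mock. Of the reads of Acta1, 96.6% were placed uniquely.

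Skeletal muscle markers were read beside Acta1. Of 9 such genes, Myf5 had no reads in any library, and the myogenic factor Myod1 had 1 read under hsa-miR-199a-3p and none elsewhere. The myogenin gene Myog had 16 reads with hsa-miR-199a-3p, 8 with hsa-miR-590-3p, 5 with cel-miR-67 and 9 with mock. Averaging 1 CPM or more were 3 of the 9, namely Ckm, Myh8 and Tnni2. Myh8 lay above both controls under each microRNA, with log2 ratios of 0.53 and 1.23 under hsa-miR-199a-3p and of 0.63 and 1.33 under hsa-miR-590-3p. It had 1154 reads under hsa-miR-199a-3p and 1088 under hsa-miR-590-3p, against 663 with cel-miR-67 and 371 with mock. Tnni2 lay below both controls under each microRNA. The list summed to 914 CPM under hsa-miR-199a-3p and 608 under hsa-miR-590-3p, against 574 with cel-miR-67 and 654 with mock, nearly all of it from Ckm, the muscle creatine kinase, which heart muscle also makes. Acta2, the smooth muscle actin, had log2 ratios of 0.48 and 0.77 under hsa-miR-199a-3p and of 0.04 and 0.34 under hsa-miR-590-3p.

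The remaining thin-filament genes set filament length and form the minor tropomyosin. Lmod2, leiomodin, which lengthens the filament at its pointed end, had log2 ratios of -0.94 and -0.92 under hsa-miR-199a-3p and of -0.51 and -0.49 under hsa-miR-590-3p. Tmod1, tropomodulin, which caps that end, stood at -0.30 and -0.15 with hsa-miR-199a-3p and at -0.46 and -0.31 with hsa-miR-590-3p. The transcript of the elongating protein thus lay further from the controls than that of the capping protein under hsa-miR-199a-3p. Tpm2, beta-tropomyosin, had log2 ratios of 0.09 and 0.41 under hsa-miR-199a-3p, and of -0.24 and 0.07 under hsa-miR-590-3p. In all, 5 of the 7 thin-filament genes stood below both controls under hsa-miR-199a-3p (medians -0.09 and -0.15) and 6 of 7 under hsa-miR-590-3p (medians -0.40 and -0.49), with Tpm1 leaving both counts by uniquely placed reads. None of the 7 was past 2-fold against both controls.

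Titin, myosin-binding protein C and the M-band genes were the role group with the lowest medians under hsa-miR-199a-3p, -1.03 and -1.14 over 4 genes. All 4 lay below both controls by total reads, and 3 of 4, without Myom1, by uniquely placed reads or by the record with the most reads. Under hsa-miR-590-3p their medians were -0.30 and -0.43, with 3 of 4 below both. Ttn, the giant spring protein that runs from Z-disc to M-band, had 14.4 RPKM under hsa-miR-199a-3p and 28.0 under hsa-miR-590-3p, against 29.7 with cel-miR-67 and 31.9 with mock. The hsa-miR-199a-3p library stood apart from the other 3, at 0.457 (95% interval 0.452 to 0.461) and 0.421 (0.416 to 0.425) times the controls. Its long N2-A and shorter N2-B records both fell by their uniquely placed reads, N2-A to 0.492 and 0.487 and N2-B to 0.484 and 0.446 times the controls. N2-A held 67.1% of the uniquely placed titin reads under hsa-miR-199a-3p and 63.2% under hsa-miR-590-3p, against 66.8% with cel-miR-67 and 65.1% with mock. Of all titin reads 2.15% were placed uniquely in 1 of the 2 records.

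Mybpc3, cardiac myosin-binding protein C, which regulates cross-bridges in the thick filament, had 497 RPKM under hsa-miR-199a-3p and 691 under hsa-miR-590-3p, against 885 with cel-miR-67 and 955 with mock. All 4 libraries keep the same order as for Ttn. Its log2 ratios of -0.92 and -1.06 under hsa-miR-199a-3p were short of 2-fold against cel-miR-67 but not against mock, and those under hsa-miR-590-3p were -0.43 and -0.56.

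Myom1 and Myom2, the myomesins that cross-link thick filaments in the M-band, stood at different distances from the controls. Myom2 had 70.4 RPKM under hsa-miR-199a-3p and 107 under hsa-miR-590-3p, against 157 with cel-miR-67 and 152 with mock. Both microRNA libraries lay below a pair of nearly equal controls, at 0.422 (0.413 to 0.431) and 0.427 (0.418 to 0.436) times under hsa-miR-199a-3p and 0.649 (0.637 to 0.662) and 0.657 (0.645 to 0.670) times under hsa-miR-590-3p. Myom1 had 154 RPKM under hsa-miR-199a-3p and 196 under hsa-miR-590-3p, against 175 with cel-miR-67 and 185 with mock, with log2 ratios of -0.27 and -0.36 under hsa-miR-199a-3p and of 0.09 and -0.01 under hsa-miR-590-3p. The direction for Myom1 under hsa-miR-199a-3p rests on total reads, most of them shared. Its uniquely placed reads numbered 1712 under hsa-miR-199a-3p and 947 under hsa-miR-590-3p, against 1065 with cel-miR-67 and 820 with mock. Of the 1712, 1624 lay in variant 1, so their sum follows the shift between records described below as well as the gene's level. Within the pair, Myom2 supplied 31.5% (31.0 to 31.9) of the RPKM, which is made from total reads, under hsa-miR-199a-3p and 35.3% (34.9 to 35.7) under hsa-miR-590-3p, against 47.2% (46.8 to 47.6) with cel-miR-67 and 45.2% (44.8 to 45.6) with mock.

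**Figure D2:**
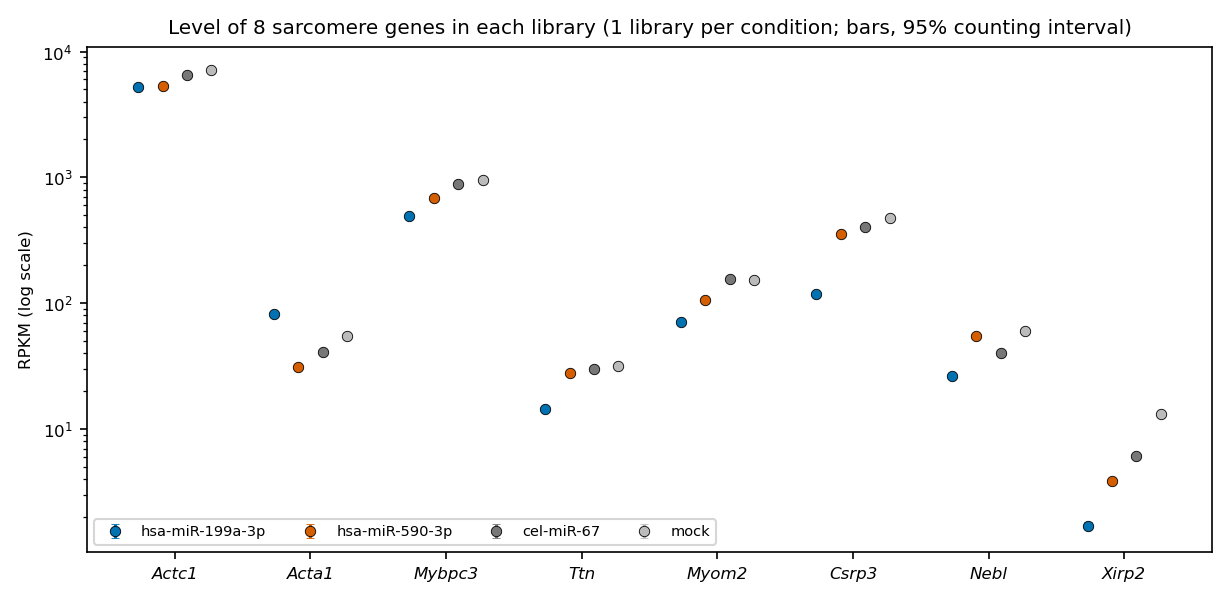
RPKM on a log scale of 8 members in each library, from left to right hsa-miR-199a-3p, hsa-miR-590-3p, cel-miR-67 and mock, with 95% counting intervals that are mostly smaller than the points. Ttn, Myom2, Csrp3 and Xirp2 are lowest under hsa-miR-199a-3p, while Acta1 is highest there at 82.0 RPKM.

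The records of Myom1 shifted against each other under hsa-miR-199a-3p, although the gene as a whole stood within 2-fold of both controls. A longer splice form of myomesin, EH-myomesin, is known from the embryonic heart. The deposited files hold a variant 1 of 5613 bases and a variant 2 of 5319 bases, 294 bases shorter, and do not say which form each encodes. Variant 1 had 1624 uniquely placed reads under hsa-miR-199a-3p and 674 under hsa-miR-590-3p, against 847 with cel-miR-67 and 594 with mock. Variant 2 had 88 under hsa-miR-199a-3p and 273 under hsa-miR-590-3p, against 218 with cel-miR-67 and 226 with mock. By these unique reads the longer record was highest and the shorter one lowest under hsa-miR-199a-3p. Variant 1 made up 94.9% (95% interval 93.7 to 95.9) of the uniquely placed Myom1 reads under hsa-miR-199a-3p and 71.2% (68.2 to 74.0) under hsa-miR-590-3p, against 79.5% (77.0 to 81.9) with cel-miR-67 and 72.4% (69.2 to 75.5) with mock. By scaled unique reads, variant 1 stood at 1.59 (1.46 to 1.73) and 2.06 (1.88 to 2.27) times the controls, and variant 2 at 0.335 (0.259 to 0.431) and 0.294 (0.227 to 0.377) times. These reads are 3.34% of all reads of the gene. Their split is not a share of transcripts, because the longer record can offer more positions where a read is unique. By total reads, which the authors divided between the records, variant 1 was level with the controls, at log2 ratios of -0.0016 and 0.05, while variant 2 was lower at -2.21 and -2.74. A lower level of the shorter record thus appears in both counts, and a higher level of the longer one does not. These counts are not independent, because the total reads include the unique ones and the rule for dividing shared reads is not stated. The authors' division of the total reads gave variant 1 a share of 94.4% under hsa-miR-199a-3p and 69.9% under hsa-miR-590-3p, against 78.5% with cel-miR-67 and 70.9% with mock. In each library this lies close to the share of unique reads, so it is no separate measure of the shift.

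Among 761 genes with several records and at least 100 uniquely placed reads in every library, a record's share differed by at least 10 percentage points from both controls in 3.15% under hsa-miR-199a-3p and in 1.05% under hsa-miR-590-3p. The controls differed from each other by that much in 2.5%. Of 6 members that met this minimum, Myom1 was past 10 points under hsa-miR-199a-3p and none was under hsa-miR-590-3p. Pdlim5, an adaptor that binds alpha-actinin and protein kinases, was past 10 points between the controls. Its short variant 9 held 11.1% (8.19 to 14.6) of uniquely placed reads under hsa-miR-199a-3p, 30.2% (26.7 to 33.8) under hsa-miR-590-3p, 18.3% (15.4 to 21.4) under cel-miR-67 and 32.4% (29.3 to 35.6) in mock. For Smyd1, a lysine methyltransferase needed for sarcomere assembly, variant 1 held 75.2% (70.8 to 79.2) under hsa-miR-199a-3p and 64.0% (59.1 to 68.7) under hsa-miR-590-3p, against 63.3% (57.5 to 68.8) with cel-miR-67 and 65.7% (60.8 to 70.3) with mock. The limits of 100 reads and 10 points were set after the Myom1 values had been seen.

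**Figure D3:**
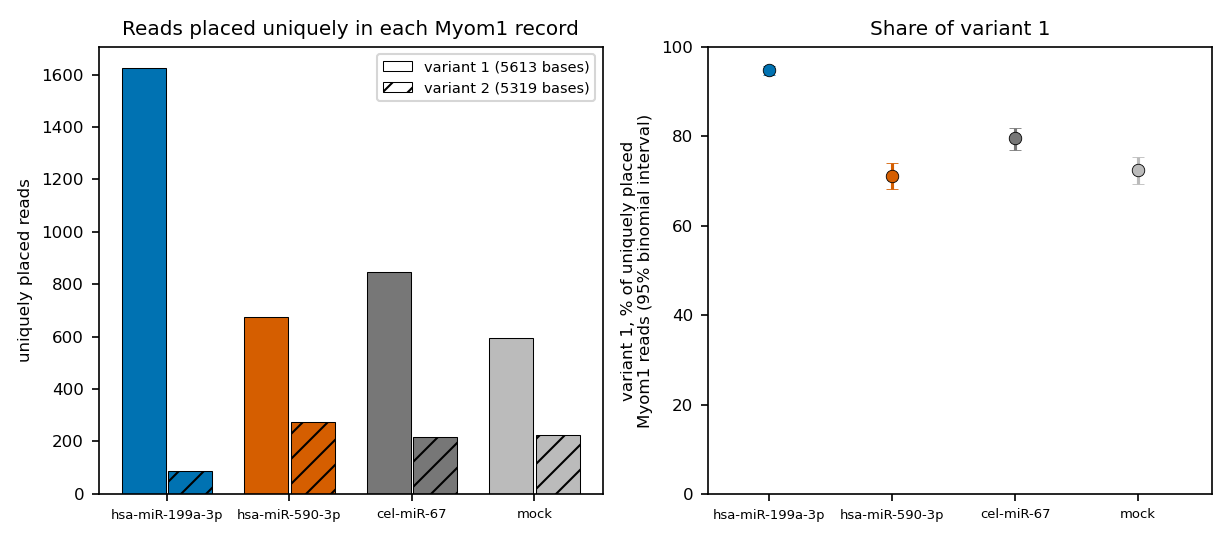
Uniquely placed reads of the 2 Myom1 records in each library (left; plain bars, variant 1; hatched bars, variant 2) and the share of variant 1 with its 95% binomial interval (right). The share is 94.9% under hsa-miR-199a-3p and between 71.2% and 79.5% in the other libraries.

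Among the Z-disc genes Csrp3 stood furthest from the controls under hsa-miR-199a-3p, and the others ranged between it and values near the controls. Under hsa-miR-199a-3p 11 of the 12 measured Z-disc genes stood below cel-miR-67 and mock alike (medians -0.47 and -0.54), and 1 was past 2-fold against both. Under hsa-miR-590-3p 8 of 12 stood below both and 2 above both (medians -0.20 and -0.24). Csrp3, the muscle LIM protein, a stretch sensor whose loss causes cardiomyopathy in mice, had 117 RPKM under hsa-miR-199a-3p and 353 under hsa-miR-590-3p, against 401 with cel-miR-67 and 473 with mock. Its hsa-miR-199a-3p library had 4706 reads, and the other 3 had 12582 to 15482. It fell to 0.275 (0.266 to 0.284) and 0.229 (0.222 to 0.237) times the controls, whereas under hsa-miR-590-3p it stood at 0.836 and 0.699 times.

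Tcap, telethonin, which ties the ends of titin together in the Z-disc and binds Csrp3, had 66.5 RPKM under hsa-miR-199a-3p and 111 under hsa-miR-590-3p, against 124 with cel-miR-67 and 153 with mock. At -0.99 and -1.31 under hsa-miR-199a-3p it missed the criterion against cel-miR-67 by the narrowest margin of any member. Nebl, nebulette, which binds thin filaments at the cardiac Z-disc, had 26.4 RPKM under hsa-miR-199a-3p and 55.3 under hsa-miR-590-3p, against 40.0 with cel-miR-67 and 60.0 with mock, so that the controls themselves differed and hsa-miR-590-3p lay between them. Pdlim5 had log2 ratios of -0.67 and -1.05 under hsa-miR-199a-3p, and of -0.01 and -0.39 under hsa-miR-590-3p.

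Csrp3 was the 1 of 12 measured Z-disc genes past 2-fold against both controls under hsa-miR-199a-3p, where Tcap, Nebl and Pdlim5 were past it against mock alone. Actn2, alpha-actinin, the main cross-linker of actin there and the most abundant gene of the group, had 662 RPKM under hsa-miR-199a-3p and 599 under hsa-miR-590-3p, against 667 with cel-miR-67 and 702 with mock, with ratios of -0.10 and -0.20 under hsa-miR-199a-3p and of -0.23 and -0.32 under hsa-miR-590-3p. Ldb3, the PDZ-LIM protein ZASP, stood at -0.32 and -0.47 with hsa-miR-199a-3p and at -0.05 and -0.19 with hsa-miR-590-3p. Myoz2, a calcineurin-binding myozenin, stood at -0.58 and -0.61 with hsa-miR-199a-3p and at -0.34 and -0.36 with hsa-miR-590-3p, and Synpo2l, an actin-binding Z-disc protein, at -0.58 and -0.62 with hsa-miR-199a-3p and at -0.23 and -0.27 with hsa-miR-590-3p. Mypn, Palld and Flnc, which are myopalladin, palladin and filamin C, had ratios between -0.19 and 0.10 in each of these comparisons. Pdlim3, actinin-associated LIM protein, stood at -0.36 and 0.28 with hsa-miR-199a-3p and at -0.28 and 0.36 with hsa-miR-590-3p, with the controls on either side of both microRNA libraries. Myot, myotilin, known mainly from skeletal muscle, had 2 to 10 reads in each library.

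Of the Xin-repeat and intercalated disc genes, Xirp2 differed most and Xirp1 least. Both proteins bind actin filaments, and Xirp2 is known from intercalated discs and Z-discs. Xirp2 had 1.71 RPKM under hsa-miR-199a-3p and 3.90 under hsa-miR-590-3p, against 6.12 with cel-miR-67 and 13.1 with mock, which rest on 789 reads under hsa-miR-199a-3p, 1607 under hsa-miR-590-3p, 2509 with cel-miR-67 and 4971 with mock. The libraries form a graded order with mock highest. The ratio of hsa-miR-199a-3p was 0.261 (0.241 to 0.283) to cel-miR-67 and 0.120 (0.111 to 0.129) to mock, and that of hsa-miR-590-3p 0.606 (0.569 to 0.645) and 0.278 (0.263 to 0.294). Its 2 records differ in length by 14 bases, and 0.61% of its reads were placed uniquely, which amounted to 5 reads in each microRNA library, 19 under cel-miR-67 and 31 in mock. By these reads alone Xirp2 lay under the minimum of 1 CPM and could not be compared. Xirp1 had 76.8 RPKM under hsa-miR-199a-3p and 68.6 under hsa-miR-590-3p, against 77.4 with cel-miR-67 and 67.7 with mock. Nrap, which organises actin and actinin when myofibrils are first laid down, had log2 ratios of -0.56 and -0.60 under hsa-miR-199a-3p and of -0.28 and -0.33 under hsa-miR-590-3p.

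Genes of the intermediate filament, costamere and chaperones lay below both controls in 4 of 6 cases under each microRNA, and none was past 2-fold. Smpx, a small costameric protein, had log2 ratios of -0.39 and -0.30 under hsa-miR-199a-3p and of -0.47 and -0.38 under hsa-miR-590-3p. Des, desmin, the intermediate filament that links Z-discs, had 407 RPKM under hsa-miR-199a-3p and 467 under hsa-miR-590-3p, against 460 with cel-miR-67 and 651 with mock, so that mock alone stood high. Hspb7, a small heat shock protein of the heart, stood at -0.43 and -0.75 with hsa-miR-199a-3p and at -0.39 and -0.72 with hsa-miR-590-3p. Cryab, alpha-B crystallin, a chaperone of desmin and titin, had 557 RPKM under hsa-miR-199a-3p and 399 under hsa-miR-590-3p, against 486 with cel-miR-67 and 505 with mock, with the microRNAs on opposite sides of the controls. Cmya5, myospryn, had 19.2 RPKM under hsa-miR-199a-3p and 26.3 under hsa-miR-590-3p, against 23.0 with cel-miR-67 and 19.1 with mock. Smyd1 had 143 RPKM under hsa-miR-199a-3p and 152 under hsa-miR-590-3p, against 121 with cel-miR-67 and 160 with mock, both microRNA libraries lying between the controls.

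Among the titin-associated signalling genes, Ankrd1, the ankyrin repeat protein CARP that binds titin's spring and responds to load, was abundant, with 1550 RPKM under hsa-miR-199a-3p and 2168 under hsa-miR-590-3p. The controls were nearly equal, at 2644 under cel-miR-67 and 2627 in mock. Its log2 ratios were -0.86 and -0.87 under hsa-miR-199a-3p and -0.36 and -0.37 under hsa-miR-590-3p. Fhl2, a LIM protein that binds titin and acts as a transcriptional cofactor, had 678 RPKM under hsa-miR-199a-3p and 427 under hsa-miR-590-3p, against 598 with cel-miR-67 and 628 with mock. It was thus low only in the hsa-miR-590-3p library, at 0.680 (0.669 to 0.692) and 0.637 (0.627 to 0.648) times the controls, and stood at 1.07 and 0.998 times under hsa-miR-199a-3p. Ankrd2, a related protein of slow skeletal muscle, had 1 to 6 reads in each library.

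The muscle RING-finger ligases that tag sarcomere proteins for degradation are encoded by Trim54, Trim55 and Trim63, and none of the 3 was past 2-fold in any comparison. Of the Trim63 reads 47.7% were placed uniquely, so its level is less certain. Shares were lower for members with several records, at 5.32% for Csrp3, 2.26% for Smyd1, 2.22% for Pdlim5, 0.79% for Nrap and 0.22% for Ldb3. Reads of these genes can be shared between their own records, and sharing with other genes was not tested. Trim54 had 13.3 RPKM under hsa-miR-199a-3p and 18.4 under hsa-miR-590-3p, against 11.2 with cel-miR-67 and 15.4 with mock. Trim55 had 162 RPKM under hsa-miR-199a-3p and 133 under hsa-miR-590-3p, against 124 with cel-miR-67 and 151 with mock, and Trim63, the ligase MuRF1 that is raised in muscle wasting, had 56.1 RPKM under hsa-miR-199a-3p and 74.9 under hsa-miR-590-3p, against 64.5 with cel-miR-67 and 72.0 with mock. All 3 lay lower under cel-miR-67 than in mock, by -0.49, -0.31 and -0.18. The highest ratio of any member against cel-miR-67 under hsa-miR-590-3p was that of Trim54, 0.64, which was 0.16 against mock.

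The control mimic itself was set against mock to see what transfection of a foreign microRNA does to these genes. Under cel-miR-67 27 of 37 members lay below mock and 10 above it, where 49.7% of all genes lay below and 50.3% above, and the member median was -0.09. This split was 20 below and 16 above by uniquely placed reads, where 45.3% of all genes lay below, and 23 below and 14 above by the record with the most reads. At least 2-fold lower was 1 member, Xirp2, at 0.459 (0.437 to 0.481) times mock, where 1.33% of all genes were lower and 0.652% higher. Next came Nebl at -0.61, Des at -0.52 and Trim54 at -0.49 on the lower side and Pdlim3 at 0.63 on the higher side. For Xirp2, Nebl and Des a ratio to mock therefore includes a difference that the control mimic shows as well.

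The direct comparison of the microRNA libraries uses neither control. Under hsa-miR-199a-3p 26 of 37 members lay below hsa-miR-590-3p and 11 above it, where 50.4% of all genes lay below and 49.6% above, and the member median was -0.22. At least 2-fold lower were Csrp3 at 0.328 (0.317 to 0.339), Xirp2 at 0.431 (0.395 to 0.470) and Nebl at 0.472 (0.452 to 0.494) times hsa-miR-590-3p, where 2.71% of all genes were. At least 2-fold higher was Acta1 at 2.62 (2.47 to 2.78) times, where 1.87% of all genes were. Ttn, at -0.96, lay just inside 2-fold. The thin-filament group had a median of 0.31 and 5 of 7 genes above hsa-miR-590-3p, while the titin and M-band group had a median of -0.56 with 4 of 4 below, again 3 without Myom1 by uniquely placed reads, and the Z-disc group -0.26 with 11 of 12 below. These are counts in 2 libraries, and the difference between role groups was not tested.

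**Figure D4:**
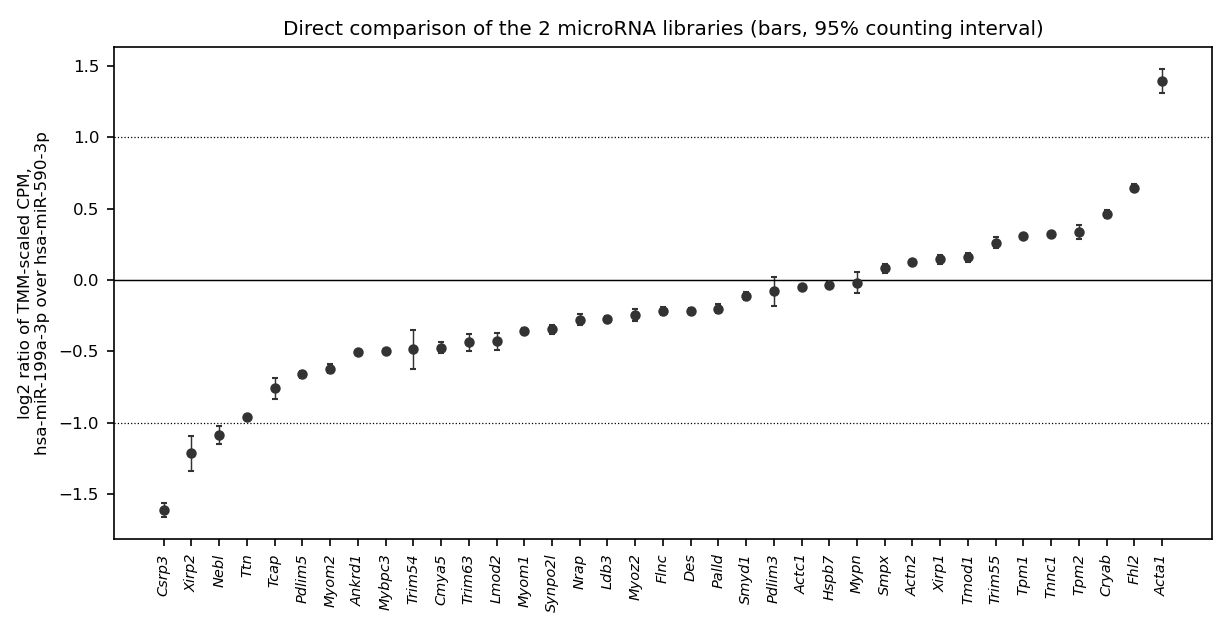
Log2 ratio of TMM-scaled CPM of the 37 measured members in the hsa-miR-199a-3p library over the hsa-miR-590-3p library, in ascending order, with 95% counting intervals and dotted lines at 2-fold. Csrp3, Xirp2 and Nebl lie beyond 2-fold on the lower side and Acta1 on the higher side at 1.39.

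As a setting for these values, of 47 further sarcomere and actin-filament genes 43 were measured, with medians of -0.08 and -0.05 under hsa-miR-199a-3p and of -0.09 and -0.08 under hsa-miR-590-3p. Under hsa-miR-199a-3p 19 lay below and 16 above both controls, and under hsa-miR-590-3p 18 lay below and 8 above. Past 2-fold under hsa-miR-199a-3p were 2 lower and 2 higher, against 2.34% and 2.4% of all genes, and none under hsa-miR-590-3p. Ankrd23, a titin-binding relative of Ankrd1, was lower at -1.36 and -1.69, and Lrrc10, a heart-specific leucine-rich repeat protein, at -1.07 and -1.20. Synpo2, a paralogue of Synpo2l found in smooth and striated muscle, was higher at 1.63 and 1.88, on 4149 reads under hsa-miR-199a-3p and 1254 under hsa-miR-590-3p, against 1114 with cel-miR-67 and 850 with mock. Myoz1, a paralogue of Myoz2 made mainly in fast skeletal muscle, was higher on 107 reads under hsa-miR-199a-3p and 31 under hsa-miR-590-3p, against 31 with cel-miR-67 and 39 with mock, with a log2 ratio of 1.04 to mock. For comparison, 10 myosin and troponin genes had medians of -0.39 and -0.49 under hsa-miR-199a-3p and of -0.32 and -0.49 under hsa-miR-590-3p.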

How the data were processed

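RNA-seq had been done on 4 libraries, 1 per condition, grouped by the treatment in the labels. Per the file headers, each deposited file gives, for 36065 RefSeq transcript records, a count of total reads, a count of uniquely placed reads, the record's length and RPKM, and the authors' RPKM equals total reads per record length and summed library reads to within rounding. The submitters' processing notes name CASAVA 1.8 and mm8 with no role, and the mapping program and strand setting are not given in the sources used here, so reads of overlapping antisense genes cannot be told apart.

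Record counts were summed per gene, with symbols by accession from a GRCm38.p6 table for 27926 records and from the headers for 8139. Scaling was by TMM in edgeR 4.0.16 (R 4.3.3), with a prior count of 0.5. Taking 3 reads as the limit that no reads allow, a gene's level could reach 0.0745 (hsa-miR-199a-3p), 0.0849 (hsa-miR-590-3p), 0.0897 (cel-miR-67) or 0.0987 CPM (mock) unseen. Intervals of ratios are exact conditional binomial, of RPKM exact Poisson and of shares exact Clopper-Pearson. The libraries leave 0 residual degrees of freedom. Without molecular identifiers, amplified copies of 1 molecule count repeatedly, so intervals and limits cover counting error only. Ratios and intervals were tested on simulated counts with Poisson error only, which cannot show the effect of spread between cultures or of amplified copies. Python 3.11.15, numpy 2.4.6, pandas 2.3.3, scipy 1.17.1 and matplotlib 3.10.9 were used.

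The members, role groups and gene lists were chosen with earlier results of these data known. Values in each library are given for members past 2-fold, the 5 highest mean RPKM, the 3 highest and 3 lowest ratios to cel-miR-67 per microRNA, members past 2-fold in the other comparisons, and 1 or 2 others per role; values of further members, the record shares and Acta2 were added after they had been seen. Alternatives covered scaling, the deposited RPKM, uniquely placed reads, the filter, record choice, prior count, each control alone and a 1.5-fold threshold.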

Additional observations from a re-analysis of the deposited data

How the results depend on the processing

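The 4 members past 2-fold under hsa-miR-199a-3p were the same 4 genes under total-count or median-of-ratios scaling, the deposited RPKM, a minimum mean of 5 CPM, no filter, the record with the most reads, a prior count of 5, and cel-miR-67 as the only control. Across these settings 3.63% to 12.3% of all genes passed under hsa-miR-199a-3p. With uniquely placed reads Xirp2 did not pass the filter and the other 3 remained, where 4.99% of all genes passed. No member passed between the controls (0) by these reads, where 1.81% of all genes did. Against mock alone there were 8 under hsa-miR-199a-3p and 1 under hsa-miR-590-3p, where 7.69% and 1.84% of all genes passed. Without a filter hsa-miR-590-3p had 1, Ankrd2 on 1 to 6 reads, and cel-miR-67 against mock 2, where 7.14% and 15.6% of all genes passed. A 1.5-fold threshold gave 10 members under hsa-miR-199a-3p, 2 under hsa-miR-590-3p, 3 for cel-miR-67 against mock and 9 in the direct comparison, where 15.1%, 4.04%, 7% and 17.2% of all genes passed.

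Member medians kept their sign in every setting. Total-count scaling moved the median of all genes by up to 0.10, for hsa-miR-199a-3p against mock, and gave member medians of -0.23 and -0.25 under hsa-miR-199a-3p, -0.17 and -0.23 under hsa-miR-590-3p and -0.071 for cel-miR-67 against mock. There 25 members lay below both controls under hsa-miR-199a-3p, where 32.8% of all genes did, and 22 under hsa-miR-590-3p, where 24% did. Cmya5, Palld and Tnnc1 left under hsa-miR-199a-3p and Des, Ldb3, Pdlim5 and Xirp1 under hsa-miR-590-3p. With uniquely placed reads 25 of 36 lay below both under hsa-miR-199a-3p, without Myom1, Tpm1 and Xirp2, where 40.3% of all genes did. Under hsa-miR-590-3p 24 of 36 did, without Tpm1 and Xirp2, where 34% of all genes did. The record with the most reads gave 27, without Myom1, and 26, where 39.8% and 33.3% of all genes lay below both. The deposited RPKM gave -0.26 and -0.27 under hsa-miR-199a-3p and -0.17 and -0.23 under hsa-miR-590-3p. Against mock, uniquely placed reads gave -0.32 for hsa-miR-199a-3p and -0.039 for cel-miR-67, and the record with the most reads gave -0.30 for hsa-miR-199a-3p, -0.30 for hsa-miR-590-3p and -0.042 for cel-miR-67. No paired analysis was possible because each condition has 1 library. Counting error is small for all but Myot and Ankrd2; the spread between cultures is unknown.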

Other observations

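Further cytoskeletal genes stood short of 2-fold against 1 or both controls under hsa-miR-199a-3p, chosen here after their values had been seen. Sorbs2, an adaptor of Z-discs and intercalated discs, stood at -0.96 and -0.98, on 23956 reads under hsa-miR-199a-3p and 37023 under hsa-miR-590-3p, against 38738 with cel-miR-67 and 35616 with mock. Dmd, dystrophin, which ties the cytoskeleton to the membrane, stood at -0.94 and -1.04, on 3085 reads under hsa-miR-199a-3p and 5342 under hsa-miR-590-3p, against 4916 with cel-miR-67 and 4795 with mock. Nexn, nexilin, an actin-binding Z-disc protein, stood at -0.73 and -1.02, on 6739 reads under hsa-miR-199a-3p and 10052 under hsa-miR-590-3p, against 9289 with cel-miR-67 and 10290 with mock. Synm, synemin, a partner of desmin, stood at -1.10 and -0.88, on 777 reads under hsa-miR-199a-3p and 1669 under hsa-miR-590-3p, against 1387 with cel-miR-67 and 1079 with mock. In the hsa-miR-590-3p library these 4 genes stood between -0.25 and 0.41 against the controls on the log2 scale.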
